A study of Sus scrofa with 24 samples.

Results

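The genes described here copy DNA and separate chromosomes, together with the relatives that share their gene names. They were taken from the array's annotation by symbol: MCM, CDC, CDK, KIF and CENP genes, cyclins A, B, D and E, subunits of DNA polymerases alpha, delta and epsilon, replication factor C subunits, both ribonucleotide reductase subunits, BUB and Aurora genes, and PCNA, TOP2A, TYMS and MYBL2. The rule left out CDC42 and CDC37. It found 52 genes among 6765 different symbols, and no expression difference entered it. Each gene is represented by the probe set with the highest mean level over the 24 arrays, out of 73 probe sets that carry these symbols. Of the 52 genes, 39 have a role in replication or in dividing the cell. The other 13 are CDK, CDC and kinesin genes whose known work lies mainly or partly elsewhere, such as transcription, translation, ubiquitin transfer or transport along microtubules.

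Before a cell divides, the MCM helicase is loaded on replication origins, opens the DNA, and polymerases held by the PCNA clamp copy each strand from nucleotides that ribonucleotide reductase and thymidylate synthase supply. Cyclin-dependent kinases drive the cell into mitosis, where kinetochores, Aurora kinases and the spindle checkpoint prepare the chromosomes for separation, which the anaphase-promoting complex releases. Many of these genes are transcribed only in cycling cells. In developing muscle the cycling cells are myoblasts and the non-muscle cells around them, while myotubes and fibres have left the cell cycle.

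RNA came from the longissimus dorsi muscle of the back, in German Landrace (DL) and Pietrain (Pi) pigs, Pietrain being a lean, heavily muscled breed. Fetal muscle was taken 35, 63 and 91 days after conception (days post conception, dpc), and adult muscle was taken as well. Every combination of breed and age, 8 in all, has 3 RNA pools, called a, b and c below. No group was treated, and no genetic modification is named. The stages are those of the labels' stage field; a free-text field describes the 18 fetal pools as from peripubertal pigs, which conflicts with it, and the titles of the 35 dpc pools alone carry a letter K that is not explained. The labels do not say how many animals a pool holds, nor their sex or the adults' age in days or years, so p-values measure differences against the spread between pools. Each pool was hybridised to an Affymetrix Porcine Genome Array, and a level below is the deposited value on a log2 scale, on which a difference of 1 is a doubling. These values were quantile-normalised, so each change is read against the rest of the array. A gene is called where limma's adjusted p over all 23999 probe sets is at most 0.05.

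Markers of other cells were read on the same arrays. All 10 measured myofibre markers were above background on all 24 arrays, with a summed level of 115 to 123 at 35 dpc and 151 to 153 in adults. Neural and Schwann cell markers had a summed level of 64.6 to 66.9 over 6 genes in the 35 dpc pools, against 14.4 to 18.8 at 63 dpc, where RTN1 and SNAP25 were at background in all 6 pools. Liver markers summed to 42.5 to 52.1 over 5 genes in the DL pools at 63 dpc and 20.3 to 21.7 in the Pi pools, and their mean level was 10.1 in adult Pi pool b against 4.05 and 4.47 in the other adult Pi pools. Background on each array was set by the brightest of 23 control probe sets without a target in the sample, between 2.31 and 2.69. In a tissue extract, fewer cells of a type and less RNA per cell cannot be told apart.

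Falls outnumbered rises at all 3 steps, and the adult step was the largest. From 35 to 63 dpc 18 of the 52 fell and 10 rose, when 22% of all probe sets fell and 22.3% rose. Between 63 and 91 dpc 18 fell and 2 rose, beside 9.4% and 8.88% of all probe sets. In the step from 91 dpc to the adult 32 fell and 9 rose, beside 26.6% and 30.8%. The median log2 change of the 52 genes was -0.33, -0.42 and -1.32 over the 3 steps, while that of all probe sets was 0.00, 0.00 and 0.06. With arrays rescaled to the spiked hybridisation controls, which moved the median of all probe sets to -0.81 in the first step, the split there became 38 lower and 5 higher. How many of all probe sets were called under that scaling is not given here.

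**Figure D1:**
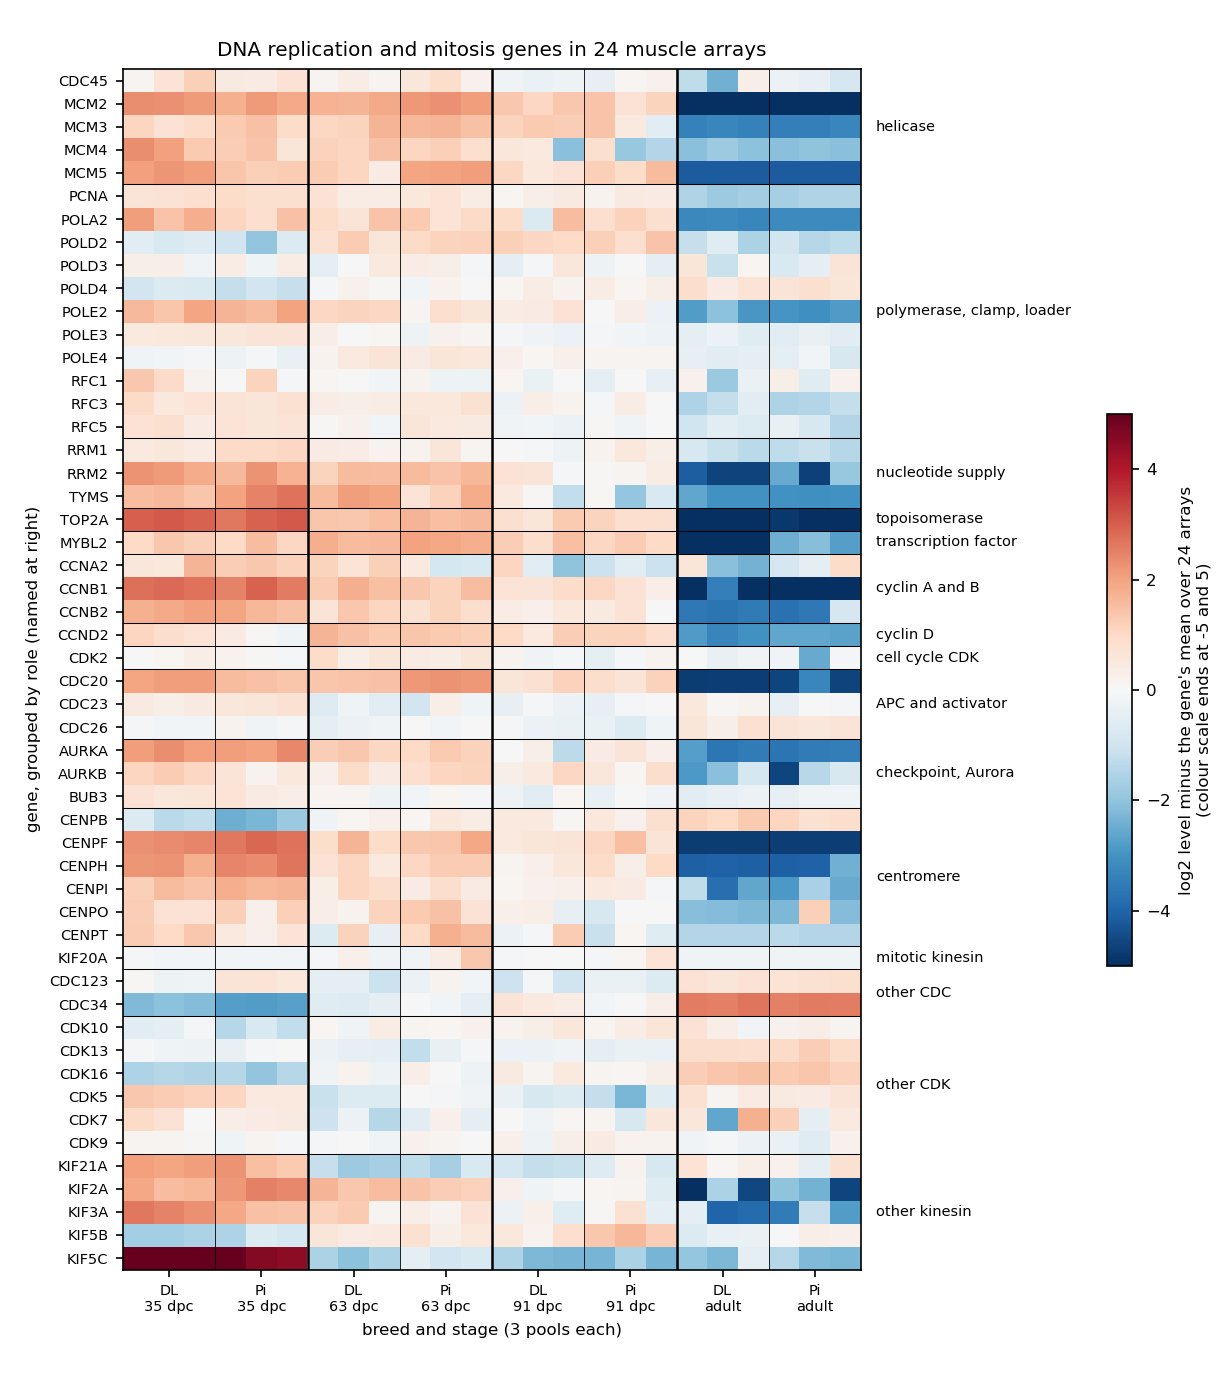
Level of each of the 52 genes (rows, grouped by role) on each of the 24 arrays (columns, 3 pools per breed and stage), as the log2 level minus the gene's mean over the arrays. Red is above and blue below that mean, with colours ending at -5 and 5. The deepest blues lie in the 6 adult pools, in MCM2, TOP2A, MYBL2 (DL pools), CCNB1, CDC20 and CENPF, and the deepest red is KIF5C at 35 dpc.

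Of the 39 genes of replication and division, 13 fell and 6 rose in the first step, 16 fell and 0 rose in the second, and 28 fell and 3 rose in the third. At an unadjusted p below 0.05 limma gave 1 rise and 21 falls in the second step. The share of all probe sets at that unadjusted p is not given. The median log2 change of these 39 was -0.28, -0.45 and -1.94. Over all 52 genes, the median level on an array ranged from 8.05 to 8.33 at 35 dpc, 7.76 to 8.26 at 63 dpc, 7.41 to 7.57 at 91 dpc and 4.50 to 6.03 in adults, so each adult array lay below every fetal array. Among the other 13 genes 5 fell and 4 rose, then 2 fell and 2 rose, then 4 fell and 6 rose.

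Adult muscle was also where the genes met the background of the array. At 35 dpc 51 of the 52 were above background in all 6 pools, the exception being KIF20A, and at 63 and 91 dpc 51 and 49 were. In adults 29 were, and 9 were above it in none: MCM2, MCM3, MCM4, MCM5, POLA2, TYMS, CENPF, CENPT and KIF20A. Each fetal array held 49 to 52 of the genes above background and each adult array 33 to 38. Over all probe sets, 21.3% to 28.0% were at or below background on the fetal arrays. On the adult arrays it was 23.8% to 32.2%, with a median of 31.2%. The background itself was set at 2.31 to 2.48 on the fetal arrays. It lay at 2.60 to 2.69 on the adult arrays except Pi pool b, at 2.36. Where all adult pools lay at background, the change is given below as a lower bound, at least so many fold. That bound is the fetal mean over the mean background of the adult arrays, as set by the control probe sets. Where only some adult pools lay at background, the fitted change is not exact.

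Of the 5 helicase genes, MCM2, MCM3, MCM4 and MCM5 were at background in all adult pools. MCM2, a subunit of the MCM ring, had levels of 9.08 to 9.63 (median 9.42) in the 6 pools at 35 dpc, 8.99 to 9.57 (9.28) at 63 dpc, 8.01 to 8.73 (8.52) at 91 dpc and 2.01 to 2.14 (2.02) in adults. No adult pool came near a fetal one. It fell by 0.81 (SE 0.10, adjusted p = 1.1e-05) between 63 and 91 dpc, and in adults it was at least 58.4-fold lower than at 91 dpc (adjusted p = 6.43e-19).

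MCM5, another subunit of the ring, was at 7.45 to 8.46 at 35 dpc, 6.66 to 8.35 at 63 dpc, 6.78 to 7.86 at 91 dpc and 2.09 to 2.10 in adults, at least 25.4-fold below 91 dpc (adjusted p = 5.98e-16). MCM3 stood at 6.27 to 7.03, 6.59 to 7.26 and 5.03 to 6.96 in the fetal stages and at 2.12 to 2.29 in adults, at least 13.9-fold lower (adjusted p = 1.26e-11). Both therefore kept the adult pools apart from all fetal pools. The smaller second-step fall of MCM5, by 0.47 (SE 0.13, adjusted p = 0.0164), was lost on the mean of its 3 probe sets, with only the groups compared in the fit, and without DL 63 dpc pool a or Pi 91 dpc pool b, with adjusted p of up to 0.0520.

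MCM4, another ring subunit, reached background earlier. It lay at 4.86 to 6.57 at 35 dpc and 5.07 to 5.71 at 63 dpc, but at 91 dpc 2 of the 6 pools were at background and the others reached 5.04. It changed by -1.73 (SE 0.44, adjusted p = 0.00885) at that step and was at least 2.08-fold lower again in adults (adjusted p = 0.00907). Neither call of MCM4 held with only the groups compared in the fit, and the adult one was also lost with array weights and on the mean of its probe sets. A second MCM4 probe set, with a mean level of 1.91, was at background in every pool but adult Pi pool a, at 3.63. It was called higher in adults, by 0.51 (adjusted p = 0.0328). This was the single case in which 2 probe sets of a gene were called in opposite directions at a step. CDC45, which joins the ring to make the active helicase, was not called at any step and stood at 4.51 to 7.21 in adults. A second CDC45 probe set, above background on all 24 arrays, was called lower from 63 to 91 dpc (-1.57, adjusted p = 0.00376). It was not called at the other steps.

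Polymerase subunits split by gene. PCNA, the sliding clamp, was at 10.17 to 10.42 (median 10.32) at 35 dpc, 9.87 to 10.22 (9.98) at 63 dpc, 9.62 to 9.97 (9.87) at 91 dpc and 7.70 to 8.02 (7.91) in adults. It stayed well above background in all adult pools. It fell by 0.28 (SE 0.08, adjusted p = 0.00998) in the first step and was 3.84-fold lower in adults than at 91 dpc (log2 change -1.94, SE 0.08, adjusted p = 9.21e-13).

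POLE2, the second subunit of polymerase epsilon, fell at all 3 steps, from 6.86 to 7.48 at 35 dpc to 2.41 to 3.43 in adults, where 4 of 6 pools were above background. POLE3, a histone-fold subunit shared with chromatin remodelling complexes, also fell at every step, but by 0.48, 0.25 and 0.32, from 10.22 to 10.35 at 35 dpc to 9.10 to 9.42 in adults. The second-step calls were not steady: that of POLE2 was lost in 5 and that of POLE3 in 8 of 12 fits that left out 1 pool. A second POLE2 probe set was also called lower at that step, with a change of -2.28 (adjusted p = 4.93e-06). POLA2, of the polymerase that lays primers, was called only in the last step, at least 10.4-fold lower.

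POLD2, POLD4 and POLE4 rose first, unlike the other subunits. POLD2, the B subunit of polymerase delta, went from 5.41 to 6.84 (median 6.66) at 35 dpc to 7.97 to 8.65 (8.42) at 63 dpc, 8.21 to 8.80 (8.50) at 91 dpc and back to 5.80 to 6.78 (6.17) in adults. Its rise was 3.74-fold (log2 change 1.90, SE 0.20, adjusted p = 2.6e-07) and its adult fall 4.85-fold (adjusted p = 1.52e-08). POLD4, the smallest delta subunit, rose by 0.97 (SE 0.09, adjusted p = 7.7e-08) and again by 0.44 (adjusted p = 5.18e-04) into the adult, at 9.02 to 9.48. Neither rise of POLD4 was called and that of POLE4 (0.67, SE 0.09) became -0.14, which was not called (adjusted p = 0.315), when arrays were rescaled to the hybridisation controls, a scaling that left POLD2 called.

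In the clamp loader, RFC3 was 2.53-fold lower in adults than at 91 dpc (adjusted p = 2.44e-07), RFC5 fell by 0.36, 0.40 and 0.69, and RFC1, the large subunit, was not called at any step. The first fall of RFC5 was lost in 9 and the second in 11 of 12 fits that left out 1 pool. POLD3 was not called either, and its adult pools, at 4.50 to 6.27, overlapped those of each fetal stage.

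All 3 nucleotide supply genes fell towards the adult. RRM2, the small subunit of ribonucleotide reductase, which is made in S phase, had levels of 8.47 to 9.09 at 35 dpc, 7.95 to 8.51 at 63 dpc, 6.75 to 7.56 at 91 dpc and 2.16 to 4.94 in adults. The adult pools were uneven: 3 of 6 were above background, 2 of them Pi. It fell by 1.18 (SE 0.32, adjusted p = 0.0143) from 63 to 91 dpc and by 4.05 (SE 0.32, adjusted p = 4.35e-09) into the adult, the first of these calls being lost with the GAPDH covariate described with the adult step.

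RRM1, the large and more stable subunit, fell less, from 10.52 to 11.12 at 35 dpc to 9.86 to 10.63 at 91 dpc and 8.68 to 9.31 in adults, a 2.46-fold adult fall (adjusted p = 3.33e-09). TYMS, which makes thymidylate, had the largest called fall of the 52 genes from 63 to 91 dpc, by 2.11 (SE 0.31, adjusted p = 6.7e-05), from 5.82 to 7.22 to 3.20 to 5.61. The 91 dpc pools of TYMS all lay below the 63 dpc pools, and adult TYMS was at background in all 6 pools, at least 3.97-fold lower than at 91 dpc.

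TOP2A, the topoisomerase that untangles sister chromatids, declined at every step. Its levels were 11.26 to 11.68 (median 11.58) at 35 dpc, 9.97 to 10.30 (10.13) at 63 dpc, 9.23 to 9.93 (9.44) at 91 dpc and 2.66 to 3.81 (3.28) in adults. No stage overlapped the next. The falls were 2.69-fold (adjusted p = 6.49e-07), 1.51-fold (adjusted p = 0.0124) and 77.9-fold (adjusted p = 5.98e-16), and all 6 adult pools were still above background.

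MYBL2, a transcription factor of genes used late in the cycle, took another path. It was at 8.88 to 9.43 at 35 dpc, rose by 0.61 (SE 0.13, adjusted p = 5.65e-04) to 9.49 to 9.90 at 63 dpc, and fell by 0.64 (SE 0.13, adjusted p = 0.00122) to 8.77 to 9.39 at 91 dpc. Adult pools ran from 1.96 to 5.76 and divided by breed, as described further on. The first rise became a change of -0.20 after rescaling to the hybridisation controls, and neither fetal change was called on the mean of both MYBL2 probe sets.

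**Figure D2:**
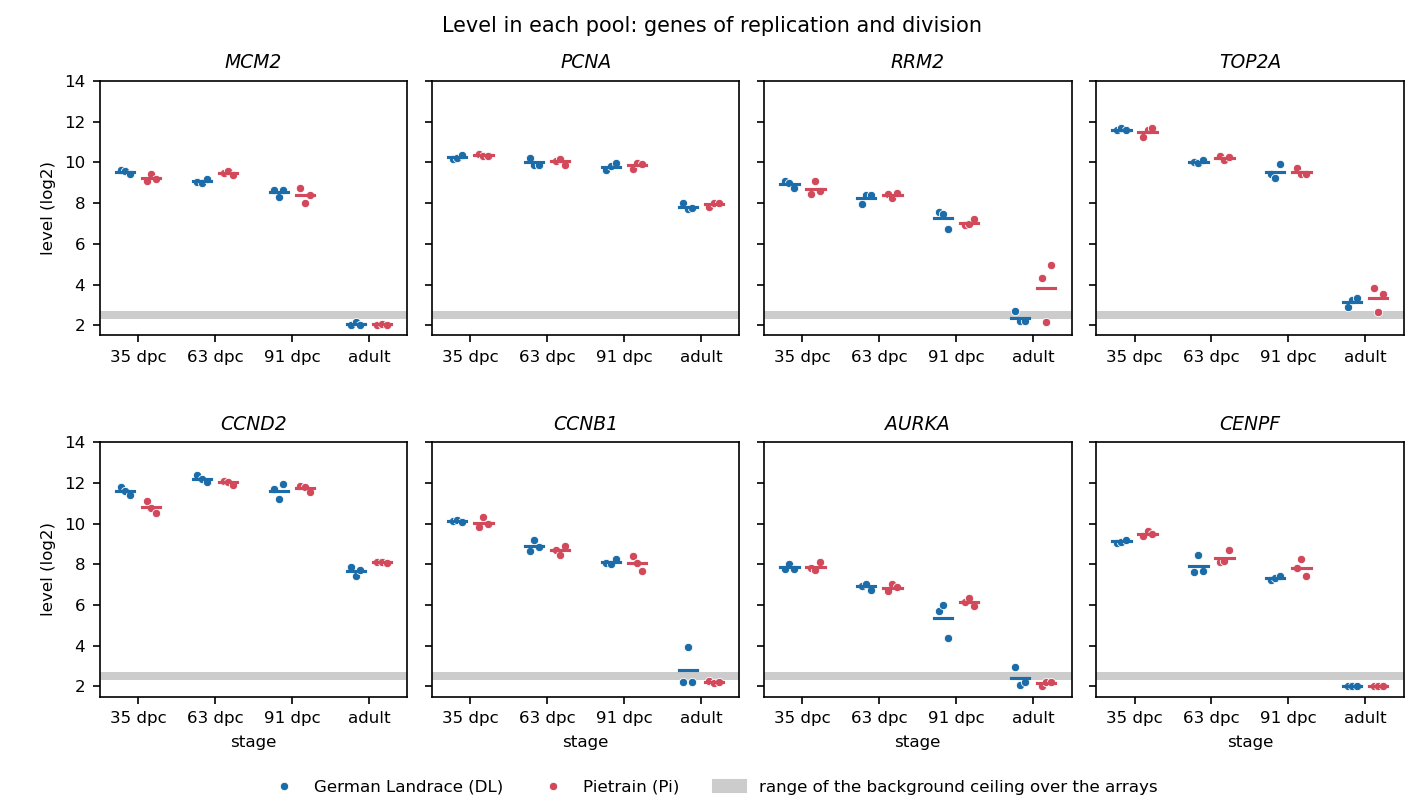
Log2 level of 8 genes of replication and division in each pool (points) by stage, DL in blue and Pi in red, with lines at the mean of 3 pools and a grey band for the range of the background ceiling over the arrays. MCM2 and CENPF lie below the band in all 6 adult pools, PCNA and CCND2 stay well above it, and RRM2 has 2 adult Pi pools well above it.

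Cyclins differed by class. CCNB1, the cyclin B that takes cells into mitosis, was at 9.86 to 10.33 (median 10.10) at 35 dpc, 8.48 to 9.17 (8.78) at 63 dpc, 7.69 to 8.41 (8.07) at 91 dpc and 2.19 to 3.96 (2.21) in adults. Stages did not overlap, and 1 adult pool, DL pool b, was above background. It fell by 1.30 (SE 0.23, adjusted p = 1.31e-04), 0.71 (SE 0.23, adjusted p = 0.0397) and 5.58 (SE 0.23, adjusted p = 5.11e-13). The middle fall was lost in 9 of the 12 fits that left out 1 pool, with adjusted p from 0.0313 to 0.103.

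CCNB2, the other B cyclin, was called only at the adult step, where it fell by 3.53 (SE 0.34, adjusted p = 6.6e-08) and only 2 of 6 pools were above background. CCNA2, the S phase and mitotic cyclin A, was not called at any step: its pools spread from 5.18 to 6.39 at 35 dpc and from 2.32 to 5.59 in adults. CCND2, a D cyclin that responds to growth signals, rose first. It went from 10.52 to 11.78 (median 11.26) at 35 dpc to 11.91 to 12.41 (12.08) at 63 dpc, 11.20 to 11.96 (11.76) at 91 dpc and 7.41 to 8.13 (7.96) in adults.

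That is, CCND2 was bright in fetal muscle, and adult muscle still held a signal far above background. Its rise was 1.89-fold (adjusted p = 8.74e-06), though not called after rescaling to the hybridisation controls, and its adult fall 13.9-fold (adjusted p = 2.86e-14). The fall of 0.44 between 63 and 91 dpc was lost without any of 4 pools (DL 63 dpc a, DL 91 dpc b, Pi 63 dpc a and Pi 91 dpc c), with adjusted p of up to 0.0610. CDK2, the kinase of S phase, was not called at any step. Its adult pools stood at 6.92 to 7.27 except Pi pool b, at 4.75, and the change into the adult was -0.47 (adjusted p = 0.184) with that pool and -0.07 without it. After rescaling to the hybridisation controls CDK2 was called lower at both later steps. The CDK2 probe sets not used were called lower in adults without rescaling. They changed by -2.85 (adjusted p = 1.73e-06) and by -0.95 (adjusted p = 0.0102). The latter was also called lower from 63 to 91 dpc (-0.88, adjusted p = 0.0443), and the former was not called there.

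Among the genes of the anaphase-promoting complex, only the activator fell in adults. CDC20, which switches the complex on, was at 8.24 to 8.92 at 35 dpc, 8.24 to 9.07 at 63 dpc, a median of 7.65 at 91 dpc and 2.10 to 3.55 in adults, with 1 adult pool, Pi b, above background. It fell by 0.95 (SE 0.17, adjusted p = 6.56e-04) and then by 5.30 (SE 0.17, adjusted p = 2.01e-14). CDC26, a small structural subunit, rose by 0.90 (SE 0.09, adjusted p = 1.74e-07) into the adult, from 8.55 to 9.21 to 9.54 to 10.01, and the 2 ranges did not overlap. CDC23, a scaffold subunit, changed by -0.89 (SE 0.16, adjusted p = 1.81e-04) in the first step and was not called afterwards, at 7.51 to 8.43 in adults.

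Checkpoint and Aurora genes also split. AURKA, the kinase of spindle poles, fell at each step: it was at 7.72 to 8.12 (median 7.79) at 35 dpc, 6.68 to 7.05 (6.91) at 63 dpc, 4.39 to 6.35 (5.99) at 91 dpc and 2.03 to 2.96 (2.22) in adults, where DL pool a was the only one above background. The falls were 0.98 (SE 0.21), 1.12 (SE 0.21) and 3.47 (SE 0.21), with adjusted p of 8.42e-04, 8.43e-04 and 1.19e-10, and the first was not called on the mean of the gene's probe sets. AURKB, the kinase of the centromere and midzone, was called at the adult step alone, by -2.65 (SE 0.47, adjusted p = 8.94e-05), and its adult pools ran from 2.18 to 5.97. BUB3, a checkpoint protein with further work in mRNA splicing, fell by 0.57 (SE 0.11, adjusted p = 1.83e-04) in the first step and stayed at 10.16 to 10.50 in adults.

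Centromere genes fell in adults with 1 exception. CENPF, a kinetochore protein made late in the cycle, stood at 9.05 to 9.64 at 35 dpc, 7.63 to 8.68 at 63 dpc, 7.25 to 8.25 at 91 dpc and 2.03 to 2.04 in adults, at least 31.7-fold lower than at 91 dpc (adjusted p = 8.51e-16). CENPH, of the inner kinetochore, fell by 1.30 (SE 0.23, adjusted p = 1.17e-04) in the first step and by 4.32 (SE 0.23, adjusted p = 1.55e-11) in the last, with 1 of 6 adult pools above background. CENPI, its partner, fell by 2.68 into the adult, CENPO by 1.52, and CENPT was at least 1.7-fold lower; the first-step fall of CENPI was lost without DL 63 dpc pool a. CENPO was at background in every adult pool but Pi b, which stood at 5.58.

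CENPB, which binds a short motif in centromeric repeats, ran the other way. Its levels were 5.35 to 7.11 (median 6.19) at 35 dpc, 7.62 to 8.31 (7.97) at 63 dpc, 7.84 to 8.61 (8.28) at 91 dpc and 8.55 to 9.10 (8.83) in adults. It rose 3.57-fold in the first step (log2 change 1.84, SE 0.15, adjusted p = 7.2e-09) and by a further 0.59 into the adult (SE 0.15, adjusted p = 0.0021). The adult rise was not called after rescaling to the hybridisation controls. KIF20A, the kinesin of cytokinesis, was at background in all pools at 35 dpc and in adults, above it in 3 pools at 63 dpc and 2 at 91 dpc, and not called.

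**Figure D3:**
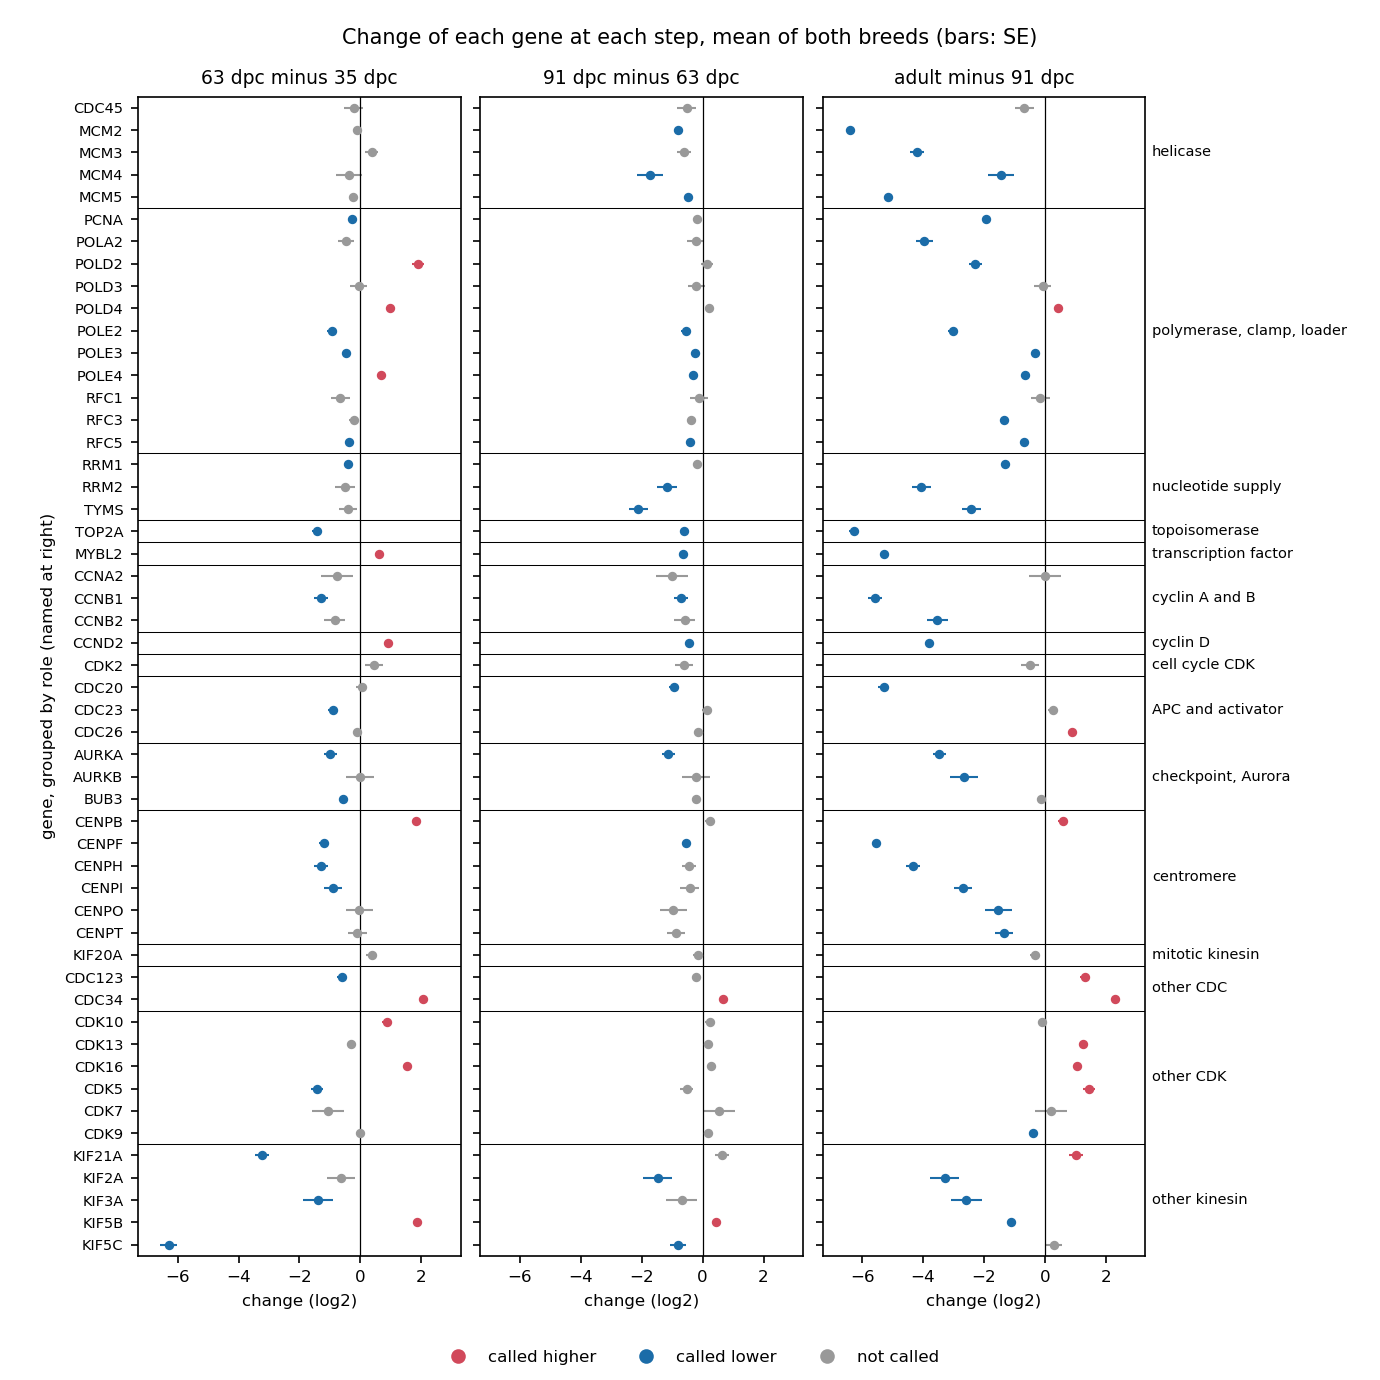
Log2 change of each of the 52 genes (rows, grouped by role) at the 3 steps, mean of both breeds, with bars of 1 SE; red is called higher, blue called lower and grey not called. In the adult step MCM2, MCM5, TOP2A, MYBL2, CCNB1, CDC20 and CENPF lie furthest to the left, each beyond -5, while CDC34, CDC123 and CDK5, CDK13 and CDK16 lie to the right.

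Of the 8 CDC and CDK genes among the other 13, 5 rose into the adult and 1 fell. CDC34, an enzyme that passes ubiquitin to targets of SCF ligases, rose at every step, alone among the 52 genes: 8.12 to 8.90 (median 8.47) at 35 dpc, 10.27 to 10.92 (10.44) at 63 dpc, 10.78 to 11.57 (11.26) at 91 dpc and 13.44 to 13.58 (13.49) in adults. The adult pools were tightly grouped and above all fetal ones. The rises were 4.14-fold (adjusted p = 5.63e-13), 1.59-fold (adjusted p = 1.2e-05) and 4.89-fold (adjusted p = 8.28e-14). CDC123, which helps assemble the translation factor eIF2, fell by 0.61 (SE 0.15, adjusted p = 0.00244) in the first step and rose by 1.30 (SE 0.15, adjusted p = 5.55e-07) in the last.

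CDK16, a kinase active in cells that no longer divide, went from 6.69 to 7.27 at 35 dpc to 8.43 to 9.01 at 63 dpc, 8.77 to 9.17 at 91 dpc and 9.82 to 10.14 in adults. Only the 63 and 91 dpc pools overlapped. It rose by 1.52 (SE 0.12, adjusted p = 3.9e-09) and by 1.05 (SE 0.12, adjusted p = 3.15e-07) in the first and last steps. CDK13, a kinase of RNA polymerase, rose by 1.26 (SE 0.13, adjusted p = 2.27e-07) into the adult, and CDK10 by 0.87 (SE 0.15, adjusted p = 8e-05) in the first step, a call that was lost with rescaling to the hybridisation controls.

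CDK5, best known from neurons, had a valley. It was at 7.35 to 8.23 at 35 dpc, 5.76 to 6.91 at 63 dpc, 4.61 to 6.56 at 91 dpc and 7.01 to 7.65 in adults. It fell by 1.43 (SE 0.21, adjusted p = 1.52e-05) and later rose by 1.45 (SE 0.21, adjusted p = 8.9e-06), the rise being lost with the difference between the 3' and 5' GAPDH probe sets as a covariate. CDK9, of transcription elongation, fell by 0.39 (SE 0.12, adjusted p = 0.00856) into the adult, and CDK7, of the general transcription machinery, was not called.

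Kinesins that carry cargo gave the largest change of the first step. KIF5C, a kinesin-1 heavy chain typical of neurons, was at 8.92 to 9.84 (median 9.66) in the 35 dpc pools and at 2.38 to 3.93 (3.15) in the 63 dpc pools, a 78.5-fold fall (log2 change -6.30, SE 0.27, adjusted p = 1.1e-12). Later pools were mostly at background, with 2 of 6 above it at 91 dpc and 2 of 6 in adults. KIF21A, another kinesin of neurons, fell 9.46-fold (log2 change -3.24, SE 0.23, adjusted p = 1.53e-09), from 7.85 to 8.78 to 4.71 to 5.78, and rose 2.01-fold into the adult (adjusted p = 0.00103).

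Beside these falls, 5 of 6 measured neural and Schwann cell markers fell in the same step, with a median of -9.52 on the log2 scale, while 10 of 10 myofibre markers rose, with a median of 2.34. The part of the neural markers in the falls of KIF5C, KIF21A and CDK5, or in the other changes of this step, was not tested. KIF5C changed by -0.81 (adjusted p = 0.0427) between 63 and 91 dpc, lost in 9 of 12 fits without 1 pool.

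KIF5B, the kinesin-1 heavy chain found in most cells, moved opposite to KIF5C. It was at 6.88 to 7.91 (median 7.02) at 35 dpc, 8.89 to 9.34 (9.10) at 63 dpc, 8.75 to 10.26 (9.63) at 91 dpc and 7.90 to 8.90 (8.43) in adults. It rose by 1.86 (SE 0.14, adjusted p = 4.65e-09) in the first step and fell 2.14-fold in the last (adjusted p = 2.82e-06). A further rise of 0.45 from 63 to 91 dpc (adjusted p = 0.0351) was lost in 7 of 12 fits without 1 pool, with adjusted p of up to 0.101.

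KIF2A, which takes microtubules apart, fell by 1.48 (SE 0.47, adjusted p = 0.0369) between 63 and 91 dpc and by 3.29 (SE 0.47, adjusted p = 9.26e-06) into the adult, where its pools ran from 2.32 to 5.79. The first of these calls was lost in 11 of 12 fits without 1 pool, with adjusted p from 0.0489 to 0.0864. KIF3A, of the motor that builds cilia, fell by 1.39 (SE 0.50, adjusted p = 0.0314) and later by 2.57 (SE 0.50, adjusted p = 2.51e-04), the first lost in 6 of 12 such fits with adjusted p of up to 0.0818. The KIF3A probe sets not used were all called lower in the first step. They changed by -2.12, -3.09 and -1.86, with adjusted p of up to 0.00208.

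**Figure D4:**
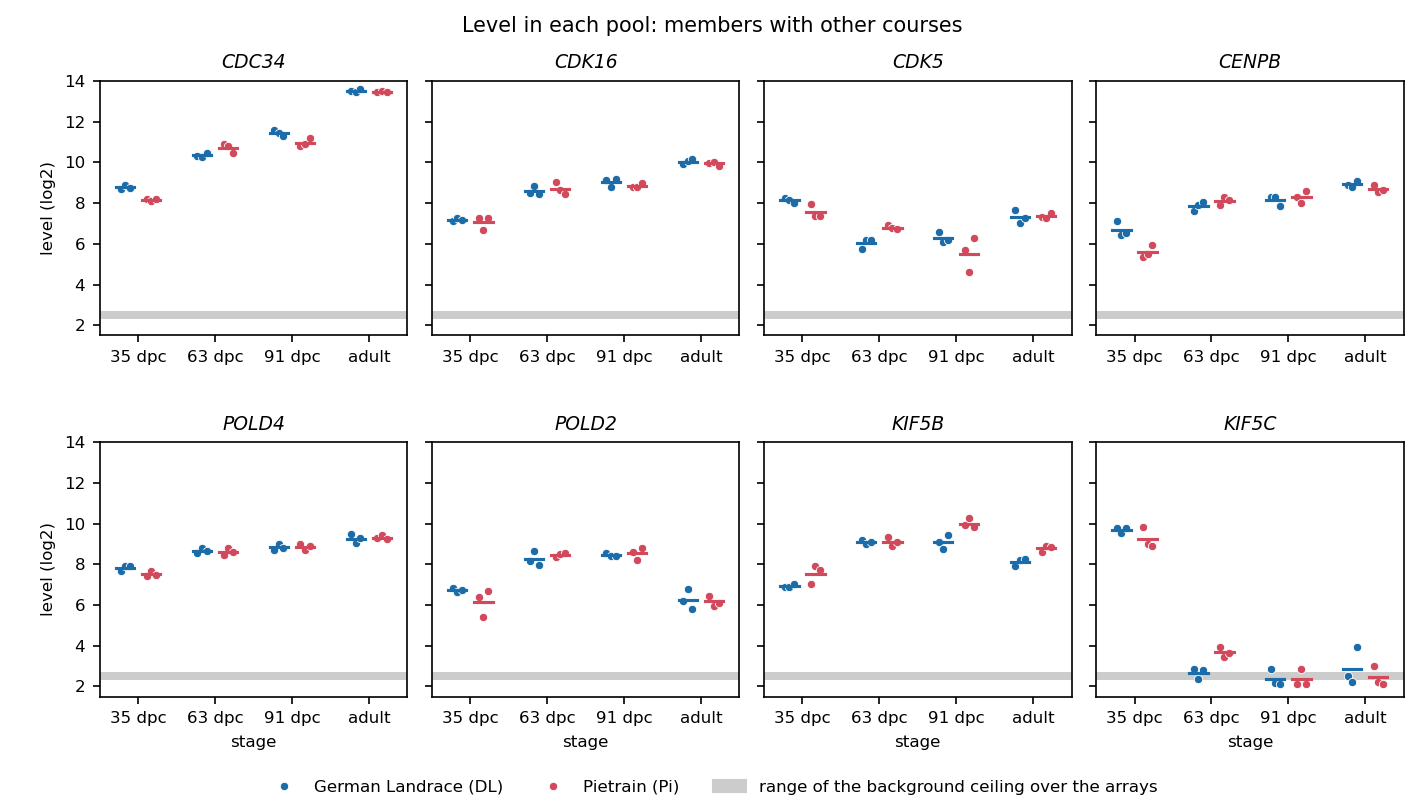
Log2 level of 8 genes with other courses in each pool (points) by stage, DL in blue and Pi in red, with lines at the mean of 3 pools and a grey band for the range of the background ceiling. CDC34 and CDK16 climb to the adult, POLD2 and KIF5B peak at 63 and 91 dpc, CDK5 has its lowest pools at 91 dpc, and KIF5C drops to the band after 35 dpc.

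Sorted by course, 7 genes fell at all 3 steps (AURKA, CCNB1, CENPF, POLE2, POLE3, RFC5 and TOP2A), and 30 fell at 1 or more steps and rose at none. Another 15 rose at 1 or more, and 7 were never called on the probe set used (CCNA2, CDC45, CDK2, CDK7, KIF20A, POLD3 and RFC1). Other probe sets of CDC45 and CDK2 were called lower, as given above. The mean level was highest at 35 dpc in 34 genes, at 63 dpc in 7, at 91 dpc in 4 and in adults in 7, and lowest in adults in 38. The shares of all probe sets with these courses, or with their highest or lowest mean at these stages, are not given here. The counts therefore do not show whether such courses are particular to the genes described.

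Other cell types and RNA measures moved with the adult step. Of 7 fibroblast and matrix markers 6 fell, with a median of -3.04 and a summed level of 75.0 to 80.2 at 91 dpc against 47.2 to 56.1 in adults, where POSTN and VCAN were at background in 2 pools each. Of 4 satellite cell and myoblast markers 3 fell, with a median of -3.45, summing to 28.0 to 29.5 and then 15.6 to 19.4, NCAM1 being at background in all adult pools and PAX3 in all but 1. Of 8 endothelial markers 5 fell and 2 rose, KDR being at background in all adult pools. Of 5 smooth muscle and pericyte markers 3 fell and 1 rose, and of 5 erythroid markers 3 fell and 0 rose. Going the other way, 7 of 10 myofibre markers rose and 1 fell, and 3 of 5 immune markers rose and 0 fell. Adipocyte and liver markers had 1 rise and 1 fall each, and neural and Schwann cell markers had 0 of either. The GAPDH signal from the 3' end minus that from the 5' end lay between 0.39 and 1.01 at 91 dpc and between -0.11 and 0.02 in adults, while the same difference for actin lay between 1.41 and 2.99 (median 1.76) at 91 dpc and between 2.28 and 2.59 (median 2.38) in adults, so the 2 measures moved in opposite directions. With the GAPDH difference as a covariate 28 of the 52 genes were called at this step in place of 41. The share of all probe sets called with that covariate is not given here. The adult calls lost were those of AURKB, CDK5, CDK9, CENPB, CENPO, CENPT, KIF21A, KIF2A, KIF3A, KIF5B, POLD4, POLE3 and RFC5. From 63 to 91 dpc 14 were called in place of 20. These 14 lacked CCNB1, CENPF, KIF2A, KIF5B, KIF5C, POLE3, POLE4, RFC5 and RRM2, and included some genes not called without the covariate. From 35 to 63 dpc KIF3A and RFC5 were lost. The part of the cell types in the adult step was not tested.

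Breeds differed in few of the genes. At 35 dpc 5 of 52 were called between Pi and DL on the probe sets used, when 4.03% of all probe sets were. All 5 were lower in Pi. CENPB stood at 7.11, 6.43 and 6.54 in the DL pools and at 5.35, 5.50 and 5.95 in the Pi pools, 2.14-fold lower in Pi (SE 0.21 on the log2 scale, adjusted p = 0.00479). CDC34 was at 8.71, 8.90 and 8.76 in DL and 8.19, 8.12 and 8.22 in Pi, a difference of -0.62 (SE 0.12, adjusted p = 0.00537). Neither pair of ranges overlapped.

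MCM5 was at 8.31, 8.46 and 8.34 in DL against 7.67, 7.45 and 7.52 in Pi (-0.82, SE 0.19, adjusted p = 0.0160), and CCND2 at 11.78, 11.58 and 11.40 against 11.12, 10.78 and 10.52 (-0.78, SE 0.18, adjusted p = 0.0189). CDK10 differed by -0.78 (SE 0.21, adjusted p = 0.0438). MCM5 was not called on the mean of its 3 probe sets, and 1 of them ran the other way, at 6.08 to 6.49 in DL and 6.75 to 6.95 in Pi, which was not called (0.60, adjusted p = 0.396). These 3 calls were less steady: MCM5 was lost in 3, CCND2 in 4 and CDK10 in 5 of the 6 fits without 1 pool, with adjusted p of up to 0.0682, 0.109 and 0.200. A CDK16 probe set not used, above background on all 24 arrays, was called higher in Pi at 35 dpc (1.65, adjusted p = 0.0131). It was called lower in Pi at 91 dpc (-1.41, adjusted p = 0.0441). Its change from 35 to 63 dpc also differed between breeds (-2.49, adjusted p = 0.0119). The CDK16 probe set used was not called in any of these comparisons (-0.11, -0.18 and 0.22).

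The direction at 35 dpc turned with the scaling. The spiked hybridisation controls read 10.40 to 10.64 in the DL pools and 9.94 to 10.14 in the Pi pools, and after rescaling to them the median of all probe sets differed by 0.51, 12 of the 52 genes were called higher in Pi and 0 lower, and none of the 5 calls above was kept. The share of all probe sets called after this rescaling is not given here. In the quantile-normalised values 6 of 10 myofibre markers were lower in Pi at this age as well, summing to 121 to 123 in DL and 115 to 117 in Pi. Their part in these differences was not tested.

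At 63 dpc MCM5 alone was called, beside 1.37% of all probe sets, and the other way round: 7.53, 7.34 and 6.66 in DL and 8.24, 8.25 and 8.35 in Pi, 2.15-fold higher in Pi (SE 0.19 on the log2 scale, adjusted p = 0.00649). The call was lost on the mean of the gene's 3 probe sets and with only these 2 groups in the fit. Liver markers, given above, separated the same DL pools from the Pi pools, and their part was not tested. At 91 dpc 2 genes were called, beside 2.72%: KIF5B, at 9.11, 8.75 and 9.43 in DL and 9.92, 10.26 and 9.82 in Pi (0.91, SE 0.20, adjusted p = 0.0214), and CDC34, lower in Pi by 0.47 (SE 0.12, adjusted p = 0.0397). Both calls were lost in 3 or more of 6 fits without 1 pool, with adjusted p of up to 0.121 and 0.181, and after rescaling to the hybridisation controls 4 of the 52 were called, all lower in Pi.

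The largest breed difference called was that of MYBL2 in adults. The adult Pi pools had levels of 5.45, 5.76 and 5.15 and the adult DL pools 1.96, 2.26 and 1.98, all 3 of the latter at background. Adult Pi was at least 7.13-fold higher than adult DL (adjusted p = 3.31e-09), and MYBL2 was the only one of the 52 genes called, when 6.33% of all probe sets were. In fetal muscle the differences were 0.01, 0.25 and -0.09 at 35, 63 and 91 dpc and were not called; the pools of the breeds overlapped at 35 and 91 dpc, while at 63 dpc DL ended at 9.70 and Pi began at 9.71. The call was kept under each alternative run, with a difference of 3.23 to 3.54 when 1 pool was left out.

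A second MYBL2 probe set gave no such separation. Its adult pools read 2.08, 2.08 and 6.48 in DL and 2.28, 3.94 and 5.85 in Pi, a difference of 0.47 (adjusted p = 0.895). Of the other cycle genes in adult Pi, RRM2 was at 4.34, 2.16 and 4.94, against 2.72, 2.21 and 2.20 in DL, which was not called (1.44, SE 0.46, adjusted p = 0.0702). TOP2A was at 3.81, 2.66 and 3.55 against 2.91, 3.23 and 3.33, and MCM2, MCM3, MCM4 and MCM5 were at background in both breeds.

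**Figure D5:**
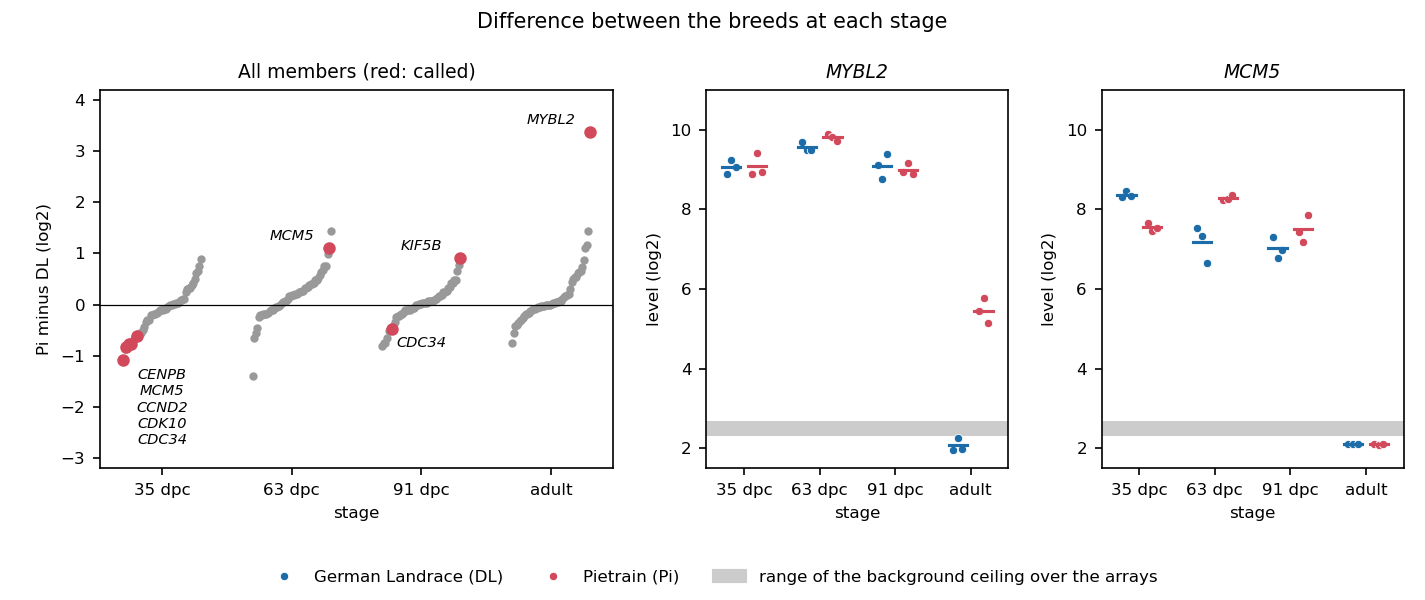
Left, Pi minus DL (log2) of all 52 genes at each stage, sorted within a stage, with called genes in red and named. Middle and right, log2 level of MYBL2 and MCM5 in each pool (points) with lines at the mean of 3 pools and a grey band for the range of the background ceiling. Adult MYBL2 lies above the band in the 3 Pi pools and below it in the 3 DL pools, and MCM5 is lower in Pi at 35 dpc and higher at 63 dpc.

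Averaged over the 4 stages 3 genes were called higher in Pi, beside 6.29% of all probe sets: MYBL2 (0.89, SE 0.09), KIF5B (0.55, SE 0.10) and CDC123 (0.41, SE 0.11). That of MYBL2 came from the adult pools and was lost on the mean of its probe sets, and that of CDC123 was lost in 5 of 24 fits without 1 pool, those leaving out DL 35 dpc b or c, DL 91 dpc a, Pi 63 dpc b or Pi 91 dpc b, with adjusted p of up to 0.0545. A CDK2 probe set not used was called lower in Pi over the 4 stages (-0.71, adjusted p = 0.0491). The step from 35 to 63 dpc differed between breeds in 4 of 52 genes on the probe sets used, beside 3.3%. MCM5 went from a mean of 8.37 to 7.18 in DL and from 7.55 to 8.28 in Pi, a difference between the changes of 1.93 (SE 0.26, adjusted p = 6.68e-04) that was not called on the mean of its 3 probe sets.

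CENPB, CDC20 and CDC34 also gained more, or lost less, in Pi over that step. Their differences between the changes were 1.36 (SE 0.29, adjusted p = 0.0154), 1.32 (SE 0.35, adjusted p = 0.0452) and 0.99 (SE 0.17, adjusted p = 0.00301). CDC20 went from 8.88 to 8.26 in DL and from 8.32 to 9.02 in Pi, but its call was lost in all 12 fits without 1 pool, with adjusted p from 0.0592 to 0.0989. After rescaling to the hybridisation controls 7 genes were called here, MCM5 higher and 6 lower in Pi, and CENPB, CDC20 and CDC34 were no longer called. Beside these differences, 6 of 10 myofibre markers also gained more in Pi, with a median of 0.63, and the 5 liver markers had a median of -5.13 with 0 called; their part was not tested. The step from 63 to 91 dpc differed in 0 of 52 genes, beside 0.0917% of all probe sets. At an unadjusted p below 0.05 limma gave 9 of the 52 there, and the share of all probe sets at that p is not given. The step into the adult differed in MYBL2 alone (3.48, SE 0.25, adjusted p = 7.49e-07), beside 2.66%.

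Other genes of the same machinery, taken from lists of known genes, were counted in the same way. Of 8 origin and licensing genes measured 5 fell in the first step, 2 fell and 1 rose in the second, and all 8 fell into the adult. Of 12 further fork and nucleotide genes 3 fell and 1 rose, then 7 fell, then 6 fell and 4 rose. Of 28 further mitosis genes 16 fell and 1 rose, then 15 fell, then 26 fell and 0 rose.

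The largest changes in these lists were in mitosis and origin genes. UBE2C, the ubiquitin enzyme of the anaphase-promoting complex, was at least 52.7-fold lower in adults than at 91 dpc, CDCA3 at least 23.9-fold, and HMGB2, a chromatin protein, changed by -4.52 (SE 0.19). In the first step NDC80, of the outer kinetochore, changed by -2.37 (SE 0.47), DBF4, of the kinase that fires origins, by -2.16 (SE 0.29) and CEP55, of cytokinesis, by -1.82 (SE 0.33). In the second ASF1B, a histone chaperone, changed by -1.32 (SE 0.21), NEK2 by -1.31 (SE 0.14) and HMMR by -1.25 (SE 0.25). Against the trend, CDC25B, a phosphatase that activates CDKs, rose by 1.89 (SE 0.13) and FOXM1, a transcription factor of mitotic genes, by 1.83 (SE 0.55) in the first step, and ORC4 by 0.36 (SE 0.12) in the second.

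Regulators outside the machinery were mixed. Of 12 measured, 3 fell and 2 rose in the first step, 3 fell in the second, and 4 fell and 2 rose into the adult, E2F3 rising by 2.39 (SE 0.30, adjusted p = 1.84e-06). The genes listed as CDK inhibitors each took their own course. CDKN1A rose by 2.02 (SE 0.13) from 35 to 63 dpc and fell by 1.46 (SE 0.13) into the adult.

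CDKN2C rose by 3.34 (SE 0.46, adjusted p = 4.82e-06) and CDKN2D by 2.10 (SE 0.22, adjusted p = 1.81e-07) into the adult, CDKN2D after a fall of 1.24 (SE 0.22) in the first step. CDKN1B rose by 0.42 between 63 and 91 dpc and fell by 0.35 into the adult, and CDKN3 fell by 0.81 at that step. CDKN2B was at background and not called at any step.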

How the data were processed

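The deposited log2 values of 24 arrays were used as the authors left them; per the labels each array holds 1 RNA pool, and per the submitters' processing notes GCOS 1.1.1 was used. The sorted values of all arrays are identical (range 1.60 to 16.10, median 5.43), so they were quantile-normalised; the log base was taken as 2 from that range, and how background was removed and probes were summarised is not stated in these sources. The array has 24123 probe sets; without its 124 controls, 23999 entered 1 limma fit (version 3.58.1, R 4.3.3) with 8 group means and 16 residual degrees of freedom. Steps between stages are the mean of both breeds, tests are two-sided, and p-values are Benjamini-Hochberg adjusted over all 23999 probe sets. In total 10069 probe sets carry 1 symbol, 198 several and 13732 none; those with several were not used. Genes named in full are the planned ones (called with the largest changes, or called between breeds), and others were added after their values were seen, to account for every member. The members and lists were chosen with earlier results of these data known. Depth does not apply to arrays; their number limits the precision. The fits were tested on simulated data. Figures were drawn with matplotlib 3.10.9. Alternatives were array weights, an intensity trend, leaving out dim probe sets, averaging a gene's probe sets, rescaling to the hybridisation controls, the pool letter as a block, the GAPDH 3' minus 5' difference as a covariate, only the groups compared, and leaving out each pool. Promoter and protein sequences were not used here. Pools with the same letter did not deviate together (84 pairs, mean correlation -0.002, 0 over 0.1), so letters were not treated as pairs.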

Additional observations from a re-analysis of the deposited data

Results flagged for a closer look

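Between 35 and 63 dpc the change differed between the breeds by an interaction test in 4 genes on the probe sets used. The mean of MCM5 and of CDC20 went down in DL and up in Pi, and that of CENPB and CDC34 went up in both breeds, by more in Pi. The differences between the changes were 1.93 for MCM5, 1.36 for CENPB, 1.32 for CDC20 and 0.99 for CDC34, on the log2 scale. From 91 dpc to the adult the change in MYBL2 differed by 3.48, adult Pi pools staying above background and adult DL pools not.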

How the results depend on the processing

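Of the calls made, 18 of 28 at the first step, 6 of 20 at the second and 27 of 41 at the third were kept under every alternative, as were adult MYBL2 between breeds and its interaction, while no call between breeds at 35, 63 or 91 dpc or in the interaction from 35 to 63 dpc was. With rescaling to the hybridisation controls 43 genes were called in the first step, where 6 positive changes turned negative (CDC20 -0.77, CDK2 -0.36, KIF20A -0.44, MCM3 -0.44, MYBL2 -0.20 and POLE4 -0.14), 12 between breeds at 35 dpc, 4 at 91 dpc and 7 in the interaction from 35 to 63 dpc; the medians became 0.41 at 35 dpc, -0.30 at 91 dpc and -0.21 in adults between breeds and -0.37 in that interaction. Array weights gave 9 calls between breeds at 35 dpc, 2 at 63 dpc, 1 at 91 dpc and 10 in the interaction from 35 to 63 dpc. The mean of a gene's probe sets gave 0 at 63 dpc and a median of 0.0165 over the 4 stages. With only the groups compared in the fit there were 0 at 63 dpc, 0 at 91 dpc and 9 in that interaction. Leaving out dim probe sets gave 1 at 91 dpc, the GAPDH covariate 0, and an intensity trend 1 in the interaction from 63 to 91 dpc. The pool letter as a replicate block gave 28, 20 and 41 calls at the 3 steps, and 1 in place of 2 between breeds at 91 dpc; it lost POLE3 from 63 to 91 dpc (19 of 20 calls shared), CDK10 at 35 dpc and CDC34 at 91 dpc between breeds, and CDC20 in the interaction from 35 to 63 dpc.

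Leaving out 1 pool at a time gave 13 to 18 calls from 63 to 91 dpc (13 without DL 91 dpc b, Pi 63 dpc b or Pi 63 dpc c), 2 to 5 between breeds at 35 dpc (2 without DL b or Pi c, 3 without DL a or Pi b), 1 to 2 at 63 dpc (2 without DL b or Pi c), 0 to 3 at 91 dpc (0 without DL a, DL b or Pi b), 1 to 2 in adults (2 without DL b, DL c or Pi b) and 2 to 5 over the 4 stages (5 without Pi 91 dpc c). The interaction from 63 to 91 dpc had 0 to 2 (2 without Pi 91 dpc c, 1 without DL 63 dpc b, DL 91 dpc c or Pi 63 dpc c) and that into the adult 1 to 2 (2 without adult Pi b). Adult levels at background limit the size of the falls given. The causes were not tested.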
